A study of Mus musculus with 38 samples.

Results

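The 31 genes examined encode the components of basement membranes and proteins linked to them. They comprise 10 laminin chains, all 6 chains of type IV collagen, collagens XV and XVIII, both nidogens, the heparan sulfate proteoglycans perlecan and agrin, and 9 linked proteins. The list was fixed by gene symbol and drawn up with earlier results of these data known, and each of the 31 symbols matched a single mouse Ensembl gene among the 55487 genes of the tables.

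The genes were followed in bulk RNA sequencing of omental tumors from a pair of transplantable mouse models of high-grade serous ovarian cancer (HGSOC), 60577 in FVB mice and HGS2 in C57BL/6J mice. Cells of either model had been injected into the peritoneal cavity of wild-type female mice aged 8 to 9 weeks, so that each tumor contained malignant cells of a single line together with the cells of the host omentum. Treated mice received 3 weekly doses of chemotherapy, with carboplatin at 20 mg/kg combined with paclitaxel at 10 mg/kg, which began 21 days (60577) or 49 days (HGS2) after injection, and control mice received the vehicle. Tumors were taken 1 day (TP1), 7 days (TP2) or 21 days (TP3) after the last dose. The 60577 groups held 3 control and 3 treated tumors at TP1, 3 control and 4 treated tumors at TP2, and 4 treated tumors at TP3. The HGS2 groups held 3 control and 3 treated tumors at TP1, 4 control and 3 treated tumors at TP2, and 4 treated tumors at TP3, of which replicate 1 was left out of the tests because the study's own tables do not contain it. Neither model had control tumors at TP3, so TP3 tumors were set against TP2 controls, and in that comparison the treatment and the later collection cannot be told apart. Both malignant cell lines were also sequenced in monoculture without drug, with 2 libraries each.

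Basement membranes are thin sheets of matrix that underlie epithelium and mesothelium and surround fat cells, muscle cells, nerves and the endothelium of vessels. Laminins are trimers of an alpha, a beta and a gamma chain that polymerize at the cell surface and bind integrins and dystroglycan. Type IV collagen trimers form a second, covalently crosslinked network, and nidogens and perlecan tie both networks together. The alpha chain sets much of a laminin's receptor binding, and the choice of chain differs between tissues.

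The tumor libraries held 17839641 to 49299421 gene counts and the cell line libraries 31633099 to 42461989. Levels are given as CPM, gene counts relative to the scaled total of their library, and levels of different genes were compared only per kilobase of exon. A gene was called changed when its log2 fold change (log2FC) was beyond 1 in either direction with an adjusted p under 0.05, and errors of log2FC are standard errors (SE). Of the 31 genes, 30 passed the filter on low counts in the tumors. The gene that did not was Frem1, which encodes an extracellular matrix protein of the Fras1 complex and stayed at 0 to 1.21 CPM in 60577 tumors and 0 to 4.49 CPM in HGS2 tumors. Keratin and other epithelial markers (Epcam, Krt8, Krt18, Krt19, Cdh1 and Pax8) summed to 4138 to 4304 CPM in the 60577 line and 668 to 1433 CPM in the HGS2 line. Epcam reached only 3.30 to 4.80 and 0 to 0.177 CPM in these lines, and Pax8, a marker of Müllerian epithelium, stayed at 0.268 to 0.288 and 0 to 0.0715 CPM. In 3 HGS2 tumors the pancreatic acinar markers (digestive enzyme genes) summed to 65829, 124984 and 63721.5 CPM. These were TP1 control replicate 3, TP2 control replicate 2 and TP3 treated replicate 2.

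In 60577 tumors the number of called genes after chemotherapy was highest at TP3. At TP1 and TP2 the share of the members called was near that of all genes. Genes of the laminins and of the linked proteins were called in both directions and the nidogens only higher. At TP1, 2 of the 30 tested genes rose (Col15a1 and Smoc2) and 4 fell (Lamc3, Npnt, Fras1 and Frem2), beside 15.6% of all genes tested that were called (9.65% higher and 5.96% lower). At TP2, 5 rose (Lama2, Lama3, Nid2, Smoc1 and Smoc2) and 1 fell (Lamc1), beside 24.4% of all genes (14.8% higher and 9.61% lower). In TP3 tumors against TP2 controls, 8 were higher (Lama2, Lama3, Lama4, Col15a1, Nid1, Nid2, Smoc1 and Smoc2) and 7 lower (Lama5, Lamc3, Col4a5, Agrn, Npnt, Fras1 and Frem2), beside 24.4% of all genes (14.2% higher and 10.2% lower). Between treated tumors, 4 genes rose and 3 fell from TP1 to TP2, beside 6.02% of all genes (3.58% higher and 2.44% lower), and 3 rose and 2 fell from TP2 to TP3, beside 7.87% (3.47% higher and 4.40% lower). The median log2FC of the members was -0.26, -0.47 and -0.10 at the successive time points, against medians of all genes of -0.00, 0.03 and -0.00. No member was called between TP2 and TP1 controls, where edgeR called no gene (0%), 1501 genes and 1 member had an unadjusted p under 0.05, and DESeq2 called 70 genes and no member. Bulk RNA cannot tell fewer cells of a type from less RNA per cell, and this holds for every result that follows.

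**Figure D1:**
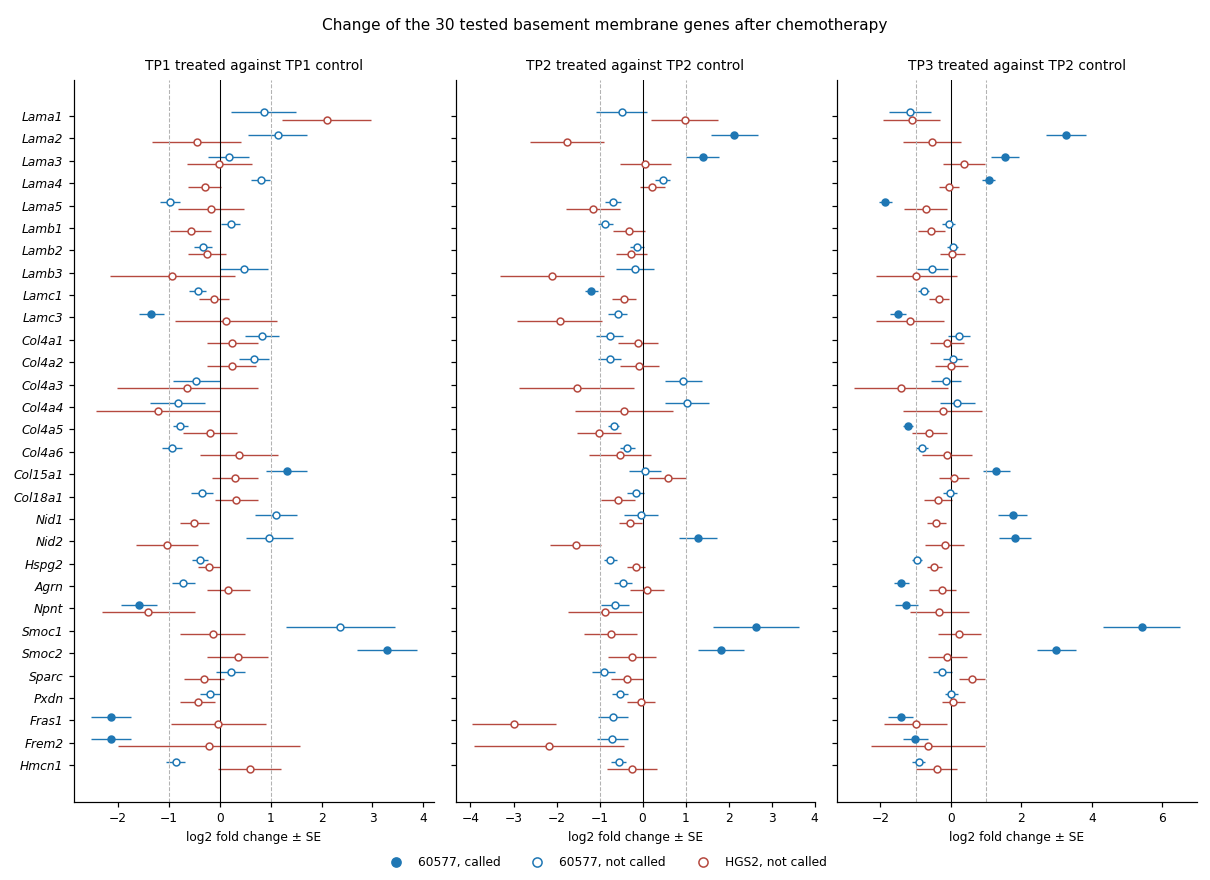
Log2 fold change with its standard error (x axis) of the 30 tested genes (y axis) at TP1, TP2 and TP3, in 60577 tumors (blue) and HGS2 tumors (red); filled points were called, dashed lines mark a log2FC of 1 in either direction. The 60577 panels hold 6, 6 and 15 filled points and the HGS2 points are all open.

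Correction for gene length and GC content altered the balance of these calls. With such an offset 12 members were called at TP2, 5 higher and 7 lower. The calls gained there were Lama5 (-1.04), Lamb1 (-1.06), Sparc (-1.01), Hspg2 (-1.13), Fras1 (-1.04) and Hmcn1 (-1.02), all lower. At TP1 the offset gained lower calls of Lama5 (-1.03) and Col4a6 (-1.05). The median of all genes moved to -0.12 at TP2 and -0.16 at TP3. At TP1, a joint fit with the HGS2 tumors, in which both models share 1 estimate of the spread, called 3 members, all higher.

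Among the laminin alpha chains of 60577 tumors, Lama5 was lower and Lama2, Lama3 and Lama4 were higher at TP3 than in TP2 controls. Lama5 encodes the main alpha chain of mature epithelial and vascular basement membranes. It measured 869, 891 and 889.6 CPM in TP1 controls and 449, 498 and 417 CPM in TP1 treated tumors, 627, 602 and 866 CPM in TP2 controls and 285, 471, 552 and 428 CPM in TP2 treated tumors, and 188, 181, 209 and 199 CPM in TP3 treated tumors. Every treated tumor lay below every control tumor of its time point, and the TP3 tumors were the lowest. The difference was under the fold limit at TP1 (log2FC = -0.98 ± 0.20, adjusted p = 0.00172) and TP2 (log2FC = -0.69 ± 0.18, adjusted p = 0.00492) and was called at TP3 (log2FC = -1.86 ± 0.18, adjusted p = 1.59e-06), as was the further fall from TP2 to TP3 treated tumors (log2FC = -1.17 ± 0.17, adjusted p = 0.00142). The last call ended with the length and GC offset (-0.80) and in the joint fit with HGS2 (-1.19, adjusted p = 0.0514).

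Lama4, the alpha chain of endothelial and adipocyte basement membranes, moved the other way. Its level was 69.7, 92.3 and 107 CPM in TP1 controls and 169, 164 and 144 CPM in TP1 treated tumors, and 107, 68.1 and 89.3 CPM in TP2 controls, 145, 111, 104 and 129 CPM in TP2 treated and 198, 203, 161 and 186 CPM in TP3 treated tumors. Treated and control tumors were separate at TP1 and TP3 and overlapped at TP2. The log2FC was 0.80 ± 0.18 at TP1, 0.46 ± 0.17 at TP2 and 1.07 ± 0.17 at TP3 (adjusted p = 0.00385, 0.0304 and 0.000137), and only the last was called. That call ended without TP2 control replicate 2 (0.91) and with the length and GC offset (0.89).

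Lama2, the alpha chain of muscle and Schwann cell laminins, had the largest log2FC of the laminins at TP2 and TP3. It measured 13.5, 4.14 and 6.11 CPM in TP2 controls, 44.9, 28.9, 15.1 and 50.7 CPM in TP2 treated and 88.7, 64.8, 51.5 and 105 CPM in TP3 treated tumors, with no overlap between controls and either treated group. It rose at TP2 (log2FC = 2.13 ± 0.55, adjusted p = 0.00413) and was higher still at TP3 (log2FC = 3.27 ± 0.57, adjusted p = 0.000246). At TP1 the treated tumors (10.4, 14.0 and 2.38 CPM) straddled the controls (3.10, 4.59 and 4.39 CPM) and the test did not pass (adjusted p = 0.146). From TP1 to TP2 treated tumors it rose (log2FC = 1.98 ± 0.54, adjusted p = 0.0237), a call that ended without TP1 treated replicate 1 (2.10, adjusted p = 0.0856), TP1 treated replicate 3 (1.53, adjusted p = 0.0701) or TP2 treated replicate 4 (1.72, adjusted p = 0.071) and in the joint fit (1.98, adjusted p = 0.118).

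Lama3 encodes the alpha chain of the laminin that anchors epithelial hemidesmosomes. It measured 11.4, 4.74 and 11.1 CPM in TP2 controls, 21.8, 20.8, 29.0 and 24.1 CPM in TP2 treated tumors and 31.3, 28.1, 24.7 and 22.3 CPM in TP3 treated tumors. All 8 treated tumors of these time points were above all control tumors (log2FC = 1.39 ± 0.39, adjusted p = 0.0067 at TP2 and log2FC = 1.54 ± 0.39, adjusted p = 0.004 at TP3), whereas at TP1 the groups overlapped (0.18 ± 0.41). It also rose from TP1 to TP2 treated tumors (log2FC = 1.41 ± 0.39, adjusted p = 0.0236). That call ended without TP1 treated replicate 1 (1.27, adjusted p = 0.117), TP1 treated replicate 3 (1.04, adjusted p = 0.074), TP2 treated replicate 3 (1.30, adjusted p = 0.059) or TP2 treated replicate 4 (1.38, adjusted p = 0.0571), with replicate numbers as a block (1.49, adjusted p = 0.057) and in the joint fit (1.42, adjusted p = 0.107). Lama1, an alpha chain best known from embryonic epithelia, ranged from 2.10 to 26.1 CPM in controls and 5.14 to 56.4 CPM in treated tumors, and was called at no time point.

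**Figure D2:**
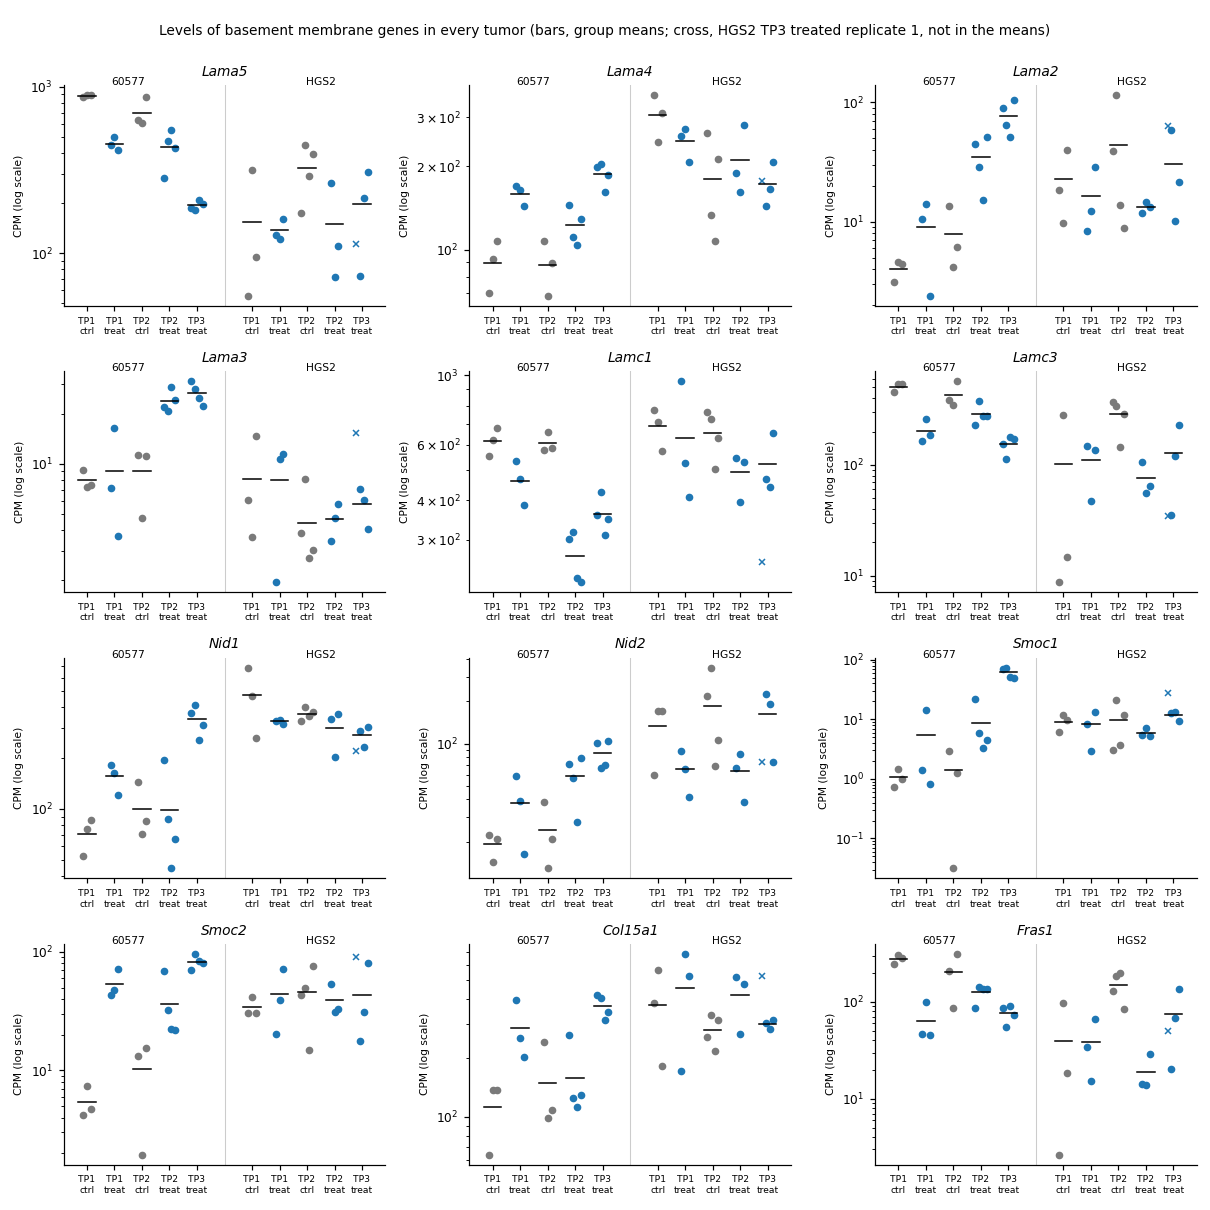
CPM on a log axis of 12 of the genes in every tumor, by group, with 60577 on the left and HGS2 on the right of each panel; gray points are control and blue points treated tumors, black bars are group means, and the cross is the HGS2 TP3 tumor left out of the tests. In 60577, Lama5 falls to 181 to 209 CPM at TP3 while Lama2, Nid1, Smoc1 and Smoc2 are above the TP2 controls, and in HGS2 the treated and control tumors of TP1 overlap in each of these 12 genes.

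Set against one another per kilobase, the chains made up a different mixture in treated tumors. As a description with no test, Lama5 accounted for 88.2 ± 2.32% (mean ± SD) of the summed level of the 5 alpha chains in TP1 controls, 68.5 ± 2.33% in TP1 treated tumors, 85.5 ± 4.59% in TP2 controls, 69.8 ± 8.53% in TP2 treated tumors and 42.2 ± 4.28% in TP3 treated tumors. The share of Lama4 was 8.42 ± 1.48%, 22.6 ± 1.22%, 10.3 ± 2.36%, 19.5 ± 6.13% and 38.2 ± 2.88% in the same order. Lama2 made up 0.687 ± 0.449% in TP2 controls and 11.6 ± 3.12% in TP3 treated tumors, and Lama3 made up 1.16 ± 0.401% and 6.10 ± 0.841%. These shares depend on the gene length used. Merged exons, used here, exceed the longest transcript for Lama4 (12068 against 6046 bases) and equal it for Lama5 (11388). Per kilobase of the longest transcript, Lama5 was above Lama4 in TP2 controls (52.9 to 76.1 against 11.3 to 17.8 CPM per kb). In TP3 treated tumors Lama5 was then below Lama4 (15.9 to 18.4 against 26.6 to 33.6 CPM per kb). In the 60577 line itself Lama5 made up 97.4 to 98.1% and Lama4 1.72 to 2.23% of the alpha chains. HGS2 tumors had a mixed makeup from the start, with Lama5 at 13.1 to 56.4% in TP1 controls, 38.2 to 69.2% in TP2 controls and 28.3 to 58.5% in the 4 TP3 treated tumors, although the HGS2 line was at 98.8 to 99.2%.

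**Figure D3:**
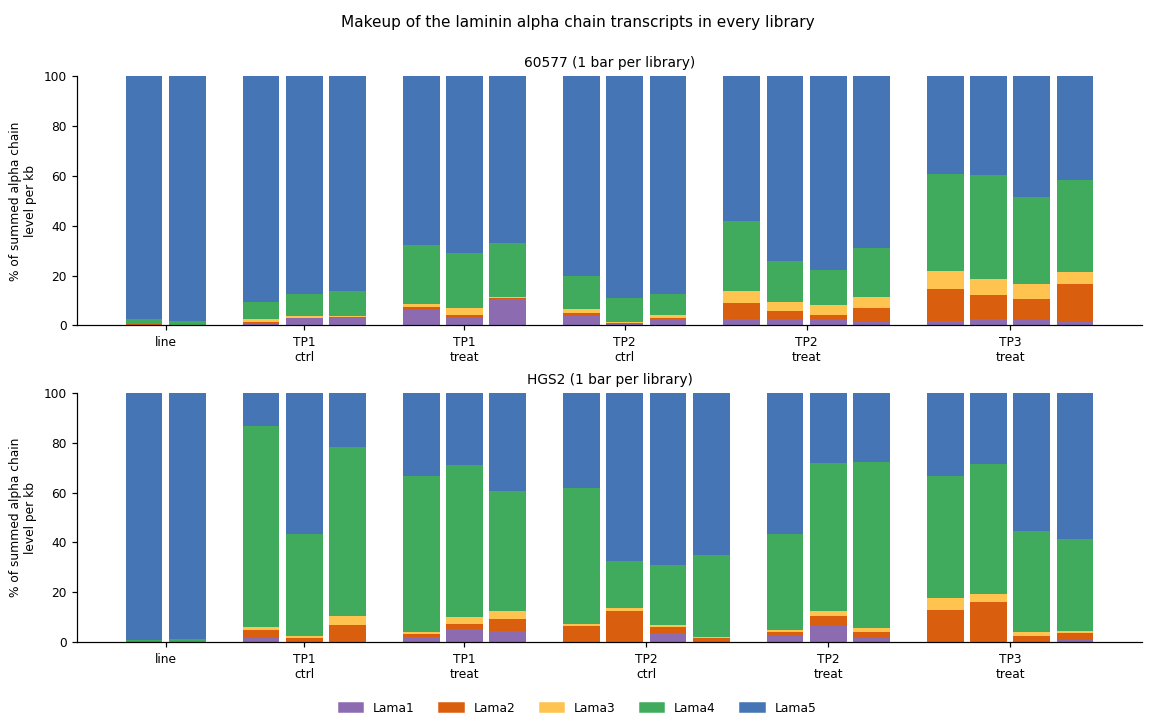
Share of each laminin alpha chain gene in the summed level per kilobase of merged exons of the 5 genes (y axis, percent), with 1 bar per library, for 60577 (top) and HGS2 (bottom). Lama5 (blue) makes up over 97% in all 4 cell line libraries, and in 60577 tumors its share is 39.2 to 48.4% at TP3.

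The beta and gamma chains changed less uniformly. Lamc1, the gamma chain of most laminins, measured 579, 661 and 586 CPM in TP2 controls, 301, 316, 227 and 219.9 CPM in TP2 treated tumors and 360.4, 424, 311 and 349.6 CPM in TP3 treated tumors. It fell at TP2 (log2FC = -1.20 ± 0.15, adjusted p = 2.37e-05), with no overlap, and the difference at TP3 was smaller and under the fold limit (log2FC = -0.77 ± 0.15, adjusted p = 0.000703). Lamc3, the gamma chain of a laminin described in retina, testis and other sites, measured 455, 537 and 537 CPM in TP1 controls and 165, 262 and 184 CPM in TP1 treated tumors, and fell (log2FC = -1.35 ± 0.24, adjusted p = 0.00067). At TP2 control and treated tumors overlapped (-0.58 ± 0.22), and at TP3 all 4 tumors (156, 113, 178 and 172 CPM) lay below the TP2 controls (382, 345 and 568 CPM; log2FC = -1.50 ± 0.22, adjusted p = 5.39e-05). In the joint fit with HGS2 the log2FC of Lamc3 was -1.35, adjusted p = 0.22 at TP1 and -1.50, adjusted p = 0.0848 at TP3.

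Lamb1, the widespread beta chain, measured 221, 234 and 202 CPM in TP2 controls and 154, 143, 92.4 and 90.5 CPM in TP2 treated tumors, and was back at 210.5, 236, 192 and 207 CPM at TP3. The TP2 difference stayed under the fold limit (log2FC = -0.87 ± 0.18, adjusted p = 0.000787), and TP3 did not differ from TP2 controls by the test (log2FC = -0.06 ± 0.18, adjusted p = 0.79). Lamb2, the beta chain of the neuromuscular junction and glomerulus, held 266 to 367 CPM in controls and 182 to 351 CPM in treated tumors. Lamb3, the partner of Lama3 in hemidesmosomal laminin, held 2.24 to 11.6 and 2.95 to 6.41 CPM. Neither was called at any time point in 60577.

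The genes of type IV collagen lie in head-to-head pairs, and Col4a1 and Col4a2, which encode the trimer found in nearly all basement membranes, are the closest such pair. In GENCODE M21 on GRCm38, Col4a1 (chr8:11198423-11312826, minus strand) and Col4a2 (chr8:11312805-11449287, plus strand) share 22 bases at their starts. The RefSeq start sites are the same positions (11312826 and 11312805), a distance of 21 bases. The windows from 250 bases before to 50 bases after each start, taken from RefSeq on GRCm38.p6 and printed 5′ to 3′ on the strand of each gene, are shown because both genes read out of the same sequence. The capitals mark the 78 bases that lie in both windows, and the run in one window is the reverse complement of that in the other. The Col4a1 window spans chr8:11312777-11313076 on the minus strand and the Col4a2 window chr8:11312555-11312854 on the plus strand.
Col4a1: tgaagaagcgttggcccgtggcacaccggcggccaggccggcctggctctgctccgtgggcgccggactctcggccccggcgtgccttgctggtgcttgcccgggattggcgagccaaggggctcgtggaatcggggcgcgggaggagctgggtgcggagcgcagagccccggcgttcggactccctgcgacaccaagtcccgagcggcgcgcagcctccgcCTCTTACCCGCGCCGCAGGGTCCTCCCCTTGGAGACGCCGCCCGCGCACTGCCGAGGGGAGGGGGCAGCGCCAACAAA
Col4a2: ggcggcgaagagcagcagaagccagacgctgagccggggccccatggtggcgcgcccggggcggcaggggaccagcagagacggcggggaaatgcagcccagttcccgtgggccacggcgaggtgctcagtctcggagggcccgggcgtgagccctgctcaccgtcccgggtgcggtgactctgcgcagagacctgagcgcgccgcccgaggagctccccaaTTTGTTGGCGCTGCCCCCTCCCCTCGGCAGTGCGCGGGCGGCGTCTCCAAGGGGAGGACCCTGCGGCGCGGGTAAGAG

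The pair Col4a5 and Col4a6, which encode chains of smooth muscle and some epithelial basement membranes and, for Col4a5, also of the kidney glomerulus, has starts 1343 bases apart on the X chromosome. The windows are at chrX:141475169-141475468 on the plus strand and chrX:141474027-141474326 on the minus strand, and capitals mark the letters of a GC box (GGGCGG) or a CCAAT box (CCAAT) on either strand.
Col4a5: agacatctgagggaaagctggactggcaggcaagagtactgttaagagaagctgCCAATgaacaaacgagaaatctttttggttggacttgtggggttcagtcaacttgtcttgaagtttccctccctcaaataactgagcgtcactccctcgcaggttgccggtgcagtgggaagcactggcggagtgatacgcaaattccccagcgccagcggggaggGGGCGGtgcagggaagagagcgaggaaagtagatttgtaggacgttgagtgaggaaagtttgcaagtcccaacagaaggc
Col4a6: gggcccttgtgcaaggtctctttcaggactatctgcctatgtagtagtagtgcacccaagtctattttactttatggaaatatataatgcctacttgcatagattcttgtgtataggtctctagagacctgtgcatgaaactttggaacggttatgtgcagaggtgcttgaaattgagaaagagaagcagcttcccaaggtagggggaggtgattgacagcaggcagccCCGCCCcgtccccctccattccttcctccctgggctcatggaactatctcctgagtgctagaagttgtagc

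The GC content was 74.0% and 73.7% in the Col4a1 and Col4a2 windows and 52.7% and 48.3% in the Col4a5 and Col4a6 windows, against a median of 52.7% over all windows. RefSeq windows were at hand for 21 of the 31 genes, 26 windows in all. A GC box was found on either strand in 14 of the 26 and in 35.7% of all 32851 windows, a CCAAT box in 10 and in 37.4%, and a TATA box (TATAAA) in none and in 13.6%. These are matches of letters, not sites.

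The levels of Col4a1 and Col4a2 stayed close to each other across tumors. In 60577, Col4a1 measured 377, 539 and 613 CPM in TP1 controls and 1085, 735 and 942 CPM in TP1 treated tumors, 879.8, 414 and 609 CPM in TP2 controls and 560.2, 413, 268 and 262 CPM in TP2 treated tumors, and 812, 1049.6, 624 and 532 CPM in TP3 treated tumors. The TP1 treated tumors were above the TP1 controls, and all 4 TP2 treated tumors were below all TP1 treated tumors. None of the contrasts with controls was called (0.83 ± 0.34 at TP1, -0.76 ± 0.31 at TP2 and 0.23 ± 0.32 at TP3; adjusted p = 0.0716, 0.0473 and 0.56). Between TP1 and TP2 treated tumors both genes fell, Col4a1 by log2FC -1.28 ± 0.31 and Col4a2 by -1.14 ± 0.27 (adjusted p = 0.0154 and 0.0134), and both calls ended without TP1 treated replicate 1 (adjusted p = 0.0821 and 0.0781) and in the joint fit (-1.27 and -1.13, adjusted p = 0.0728 and 0.085). The call of Col4a1 also ended without TP1 treated replicate 3 (-1.26, adjusted p = 0.0504). Per kilobase, Col4a1 stood at 1.02 to 1.49 times Col4a2 in all 34 tumors (median 1.25) while the Col4a1 level itself spanned 4.98-fold, and at 1.36 to 1.59 times in the 4 cell line libraries. The ratio is a description over libraries that differ in depth and makeup.

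Col4a5 was lower in treated than in control tumors of 60577. It measured 203, 207 and 213 CPM in TP1 controls, 138, 129 and 103 CPM in TP1 treated tumors, 167, 178 and 211 CPM in TP2 controls, 101, 139, 103 and 123 CPM in TP2 treated and 81.9, 72.8, 91.8 and 76.5 CPM in TP3 treated tumors. Treated tumors were below controls at each time point without overlap, under the fold limit at TP1 (log2FC = -0.78 ± 0.14, adjusted p = 0.00094) and TP2 (log2FC = -0.68 ± 0.13, adjusted p = 0.000667) and called at TP3 (log2FC = -1.21 ± 0.13, adjusted p = 4.40e-06). Its neighbor Col4a6 had log2FC of -0.94 ± 0.19, -0.36 ± 0.17 and -0.82 ± 0.17 at the 3 time points (adjusted p = 0.00164, 0.0878 and 0.0011) and was not called. The Col4a5 level per kilobase was 1.18 to 2.01 times that of Col4a6 in 60577 tumors and 1.11 to 4.54 times in HGS2 tumors, a wider range than for Col4a1 and Col4a2.

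**Figure D4:**
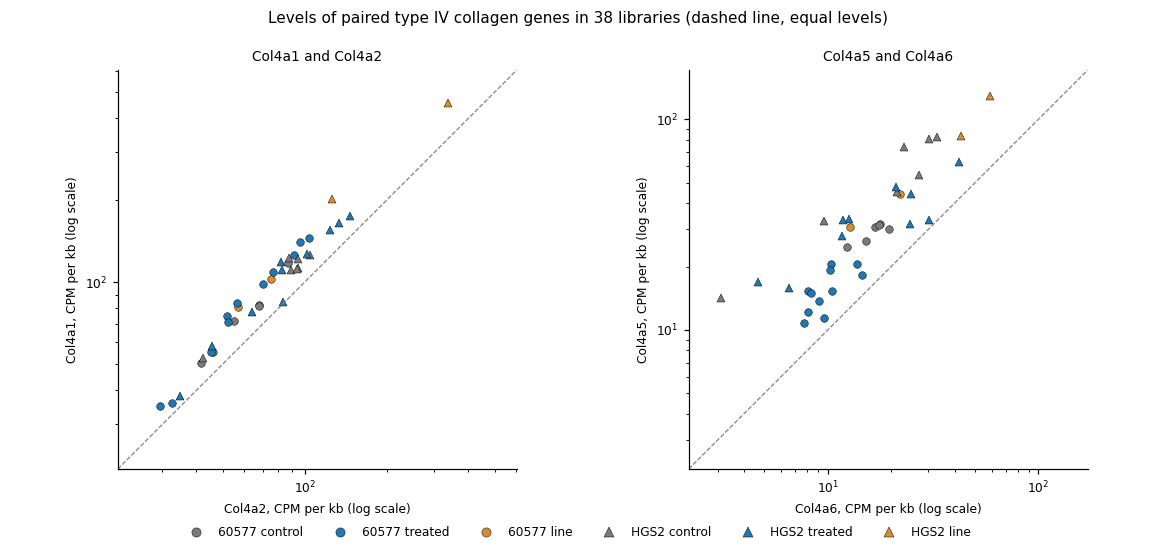
Levels in CPM per kilobase of Col4a1 against Col4a2 (left) and Col4a5 against Col4a6 (right) in all 38 libraries, on log axes of equal scale with a dashed line at equal levels; circles are 60577 and triangles HGS2, gray control, blue treated and orange cell line. The Col4a1 points run parallel to the line at 1.02 to 1.59 times Col4a2, and the Col4a5 points scatter from 1.11 to 4.54 times Col4a6.

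Col4a3 and Col4a4, partners in the collagen of the glomerulus and alveolus, were scarce in tumors, at 0.502 to 2.95 and 1.64 to 11.9 CPM in 60577. Against controls neither was called in the main test. At TP2 limma-voom called both higher (1.23 and 1.21, limma-voom adjusted p = 0.0178 and 0.0442). With the acinar markers as a covariate both were also called higher at TP2 (1.53 and 1.97, adjusted p = 0.048 and 0.0268). From TP1 to TP2 treated tumors both rose (1.40 ± 0.44 and 1.79 ± 0.53; adjusted p = 0.0388 and 0.0318), and Col4a3 fell from TP2 to TP3 (log2FC = -1.08 ± 0.39, adjusted p = 0.0451). These calls rested on few reads, and those from TP1 to TP2 ended without TP1 treated replicate 1 (1.14 and 1.55, adjusted p = 0.174 and 0.144), with replicate numbers as a block (1.36 and 1.70, adjusted p = 0.0721 and 0.0878) and in the joint fit (1.41 and 1.80, adjusted p = 0.308 and 0.192). They also ended without TP1 treated replicate 3, TP2 treated replicate 3 or TP2 treated replicate 4, each alone. The fall of Col4a3 ended in 10 of 17 fits that left out 1 tumor, with its highest adjusted p without TP2 treated replicate 4 (-0.98, adjusted p = 0.11).

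Of the collagens that sit at the outer face of basement membranes, Col15a1 changed and Col18a1, the source of endostatin, did not pass the test. Col15a1, which links basement membranes to the collagen fibrils beneath, measured 64.0, 137 and 137 CPM in TP1 controls and 396, 255 and 202 CPM in TP1 treated tumors, and all treated tumors were higher. In TP2 treated tumors it measured 263, 125, 112 and 129 CPM, which overlapped the TP2 controls (241, 98.3 and 108 CPM), and in TP3 treated tumors 421, 405, 313 and 344 CPM, which did not. The rise was called at TP1 (log2FC = 1.31 ± 0.40, adjusted p = 0.0214) and TP3 (log2FC = 1.30 ± 0.39, adjusted p = 0.011), and from TP2 to TP3 treated tumors (log2FC = 1.23 ± 0.35, adjusted p = 0.0169). The TP1 call ended without TP1 control replicate 1 (1.03, adjusted p = 0.0957) or TP1 treated replicate 1 (adjusted p = 0.0988), and with the acinar markers as a covariate (adjusted p = 0.0867), and the TP3 call without TP2 control replicate 2 (1.06, adjusted p = 0.0554) or replicate 3 (1.11, adjusted p = 0.0524). The call from TP2 to TP3 ended without TP2 treated replicate 3 (1.10, adjusted p = 0.0586) or replicate 4 (1.17, adjusted p = 0.0512) and with that covariate (0.70, adjusted p = 0.268). Col18a1 held 183 to 307 CPM in controls and 152 to 284 CPM in treated tumors.

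Both nidogens, the linkers between the laminin and collagen networks, were higher in TP3 tumors. Nid1 measured 52.5, 75.4 and 86.2 CPM in TP1 controls, 182, 164 and 122 CPM in TP1 treated tumors, 144, 70.5 and 84.3 CPM in TP2 controls, 194, 87.2, 44.3 and 66.2 CPM in TP2 treated and 372, 412, 257 and 316 CPM in TP3 treated tumors. The TP3 tumors lay above all other 60577 tumors, the TP1 treated tumors lay above their controls, and the TP2 groups overlapped widely. The log2FC was 1.10 ± 0.42 at TP1 (adjusted p = 0.0553), -0.04 ± 0.39 at TP2 (adjusted p = 0.944) and 1.75 ± 0.41 at TP3 (adjusted p = 0.00232), of which the last was called, as was the rise from TP2 to TP3 treated tumors (log2FC = 1.79 ± 0.37, adjusted p = 0.0045), though not with the acinar covariate (1.40, adjusted p = 0.0721). At TP1 Nid1 was called higher by the DESeq2 Wald test (1.12, DESeq2 adjusted p = 0.0213) and in the joint fit with HGS2 (1.10, adjusted p = 0.0466). Nid2 measured 38.6, 12.9 and 20.8 CPM in TP2 controls, 71.3, 56.6, 27.8 and 79.5 CPM in TP2 treated and 102, 66.6, 70.6 and 104 CPM in TP3 treated tumors. It rose at TP2 (log2FC = 1.28 ± 0.44, adjusted p = 0.0219), where the highest control overlapped the treated tumors, and at TP3 (log2FC = 1.81 ± 0.45, adjusted p = 0.00344), where none did. The TP2 call ended without TP2 control replicate 2 (0.97, adjusted p = 0.0961), TP2 control replicate 3 (1.18, adjusted p = 0.0687) or TP2 treated replicate 4 (1.10, adjusted p = 0.0621), and in the joint fit (adjusted p = 0.0515).

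Of the heparan sulfate proteoglycans, agrin was called lower at TP3 and perlecan at no time point in the main test. With the length and GC offset perlecan was called lower at TP2 (-1.13, adjusted p = 5.76e-05). Perlecan (Hspg2), which binds growth factors and bridges to nidogen, measured 2409, 3052 and 3394 CPM in TP1 controls and 2503, 2312 and 2028 CPM in TP1 treated tumors, which overlapped (log2FC = -0.39 ± 0.16, adjusted p = 0.0643). It measured 2704, 2440.0 and 2746 CPM in TP2 controls, 1433, 1844, 1495 and 1505 CPM in TP2 treated and 1399.9, 1489, 1272 and 1299 CPM in TP3 treated tumors. Treated tumors of TP2 and TP3 were below the TP2 controls without overlap, at log2FC under the limit (-0.75 ± 0.14 at TP2 and -0.96 ± 0.14 at TP3, adjusted p = 0.000568 and 6.71e-05). Agrin (Agrn), which clusters acetylcholine receptors and is also made by many epithelia, measured 573, 692 and 690.5 CPM in TP1 controls, 369.6, 427 and 407 CPM in TP1 treated tumors, 576, 418 and 741 CPM in TP2 controls, 267, 488, 516 and 416 CPM in TP2 treated and 223, 197, 216 and 249 CPM in TP3 treated tumors. The groups were separate at TP1 (log2FC = -0.72 ± 0.23, adjusted p = 0.0236) and TP3 (log2FC = -1.40 ± 0.21, adjusted p = 6.64e-05) and overlapped at TP2 (log2FC = -0.46 ± 0.21, adjusted p = 0.073).

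The matricellular genes Smoc1 and Smoc2, calcium-binding relatives of Sparc, were higher in treated 60577 tumors, and Smoc1 had the largest log2FC of the set at TP2 and TP3 and Smoc2 at TP1. Smoc2 measured 4.20, 7.36 and 4.74 CPM in TP1 controls and 43.3, 47.6 and 71.0 CPM in TP1 treated tumors, 13.3, 1.95 and 15.6 CPM in TP2 controls and 68.9, 32.1, 22.5 and 22.1 CPM in TP2 treated tumors, and 70.8, 96.1, 83.6 and 81.2 CPM in TP3 treated tumors. All 11 treated tumors were above all 6 control tumors, and the gene was called at TP1 (log2FC = 3.29 ± 0.59, adjusted p = 0.000723), TP2 (log2FC = 1.82 ± 0.53, adjusted p = 0.00919) and TP3 (log2FC = 3.00 ± 0.56, adjusted p = 0.000408). Smoc1 measured 2.95, 0.0314 and 1.25 CPM in TP2 controls, 21.6, 5.95, 3.33 and 4.41 CPM in TP2 treated and 70.2, 73.7, 51.5 and 49.5 CPM in TP3 treated tumors, and was higher at TP2 (log2FC = 2.63 ± 1.00, adjusted p = 0.0349) and TP3 (log2FC = 5.42 ± 1.10, adjusted p = 0.000814). At TP1 a single treated tumor stood apart (1.41, 14.4 and 0.821 CPM against 0.722, 1.47 and 0.994 CPM) and the test did not pass. The TP2 call of Smoc1 ended with replicate numbers as a block (2.61, adjusted p = 0.0506) and without TP2 control replicate 2 (2.04, adjusted p = 0.102), TP2 control replicate 3 (2.55, adjusted p = 0.0861) or TP2 treated replicate 1 (1.68, adjusted p = 0.135). Smoc1 also rose from TP2 to TP3 treated tumors (log2FC = 2.79 ± 0.84, adjusted p = 0.0212), without overlap, a call that ended without TP2 treated replicate 3 (2.52, adjusted p = 0.0663) or replicate 4 (2.58, adjusted p = 0.0651) and with the acinar covariate (0.84, adjusted p = 0.677).

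Sparc, which binds type IV and fibrillar collagens and takes part in their deposition, measured 2216, 1479 and 1577 CPM in TP1 treated tumors, 1054, 957, 477 and 536 CPM in TP2 treated tumors and 1193, 1450.3, 1131 and 1024 CPM in TP3 treated tumors, against 1668, 1119 and 1427 CPM in TP2 controls. It was lower in TP2 treated tumors than in controls, without overlap and under the fold limit (log2FC = -0.90 ± 0.27, adjusted p = 0.00942), and fell from TP1 to TP2 treated tumors (log2FC = -1.20 ± 0.27, adjusted p = 0.0102), a call that ended without TP1 treated replicate 1 (adjusted p = 0.0706). Peroxidasin (Pxdn), which forms the sulfilimine crosslinks of type IV collagen, held 97.3 to 158 CPM in controls and 76.1 to 152 CPM in treated tumors and was not called.

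Fras1 and Frem2, genes of the Fraser complex that holds epithelium to the underlying connective tissue, and the nephronectin gene were called lower at TP1 and TP3 and not at TP2. Frem1, also of that complex, was not tested. Fras1 measured 248, 304 and 282 CPM in TP1 controls and 46.5, 99.8 and 45.4 CPM in TP1 treated tumors, 207, 86.9 and 313 CPM in TP2 controls, 85.7, 144, 138 and 135 CPM in TP2 treated and 87.0, 55.5, 89.7 and 73.2 CPM in TP3 treated tumors. The TP1 groups were far apart, while TP2 control replicate 2 was as low as the treated tumors. Fras1 fell at TP1 (log2FC = -2.14 ± 0.40, adjusted p = 0.000942) and TP3 (log2FC = -1.42 ± 0.36, adjusted p = 0.0037) and was not called at TP2 (log2FC = -0.69 ± 0.36, adjusted p = 0.105). Frem2, its partner, was at 11.8, 9.72 and 13.5 CPM in TP1 controls and 2.29, 4.14 and 1.60 CPM in TP1 treated tumors (log2FC = -2.14 ± 0.40, adjusted p = 0.000905), and was lower at TP3 (2.25 to 4.30 CPM against 3.26 to 9.97 CPM in TP2 controls; log2FC = -1.01 ± 0.36, adjusted p = 0.0268), where the groups overlapped. At TP2 Frem2 measured 5.97, 3.26 and 9.97 CPM in controls and 3.10, 4.88, 4.14 and 3.63 CPM in treated tumors, which overlapped (log2FC = -0.70 ± 0.36, adjusted p = 0.101). Nephronectin (Npnt), an integrin ligand of kidney and skin basement membranes, measured 64.5, 58.8 and 40.7 CPM in TP1 controls and 17.2, 23.3 and 15.0 CPM in TP1 treated tumors, and fell at TP1 (log2FC = -1.58 ± 0.35, adjusted p = 0.00329) and TP3 (at most 17.2 CPM against at least 18.3 CPM in TP2 controls; log2FC = -1.26 ± 0.32, adjusted p = 0.00415), with no overlap at either. Its TP2 levels were 29.3, 18.3 and 55.6 CPM in controls and 19.1, 32.7, 16.7 and 19.8 CPM in treated tumors, which overlapped (log2FC = -0.64 ± 0.32, adjusted p = 0.0974).

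The TP3 calls of Fras1, Frem2 and Npnt depended on TP2 control replicate 3. Without it their log2FC were -0.96, -0.54 and -0.73 (adjusted p = 0.0367, 0.224 and 0.0499). Frem2 also lost it without TP2 treated replicate 1 or 4 (-0.99 and -0.99) or TP3 treated replicate 2 or 4 (-0.88 and -0.94). In the joint fit with HGS2 tumors Fras1, Frem2 and Npnt also lost their calls, at log2FC of -2.15, -2.15 and -1.59 at TP1 (adjusted p = 0.0505, 0.225 and 0.123) and -1.44, -1.03 and -1.28 at TP3 (adjusted p = 0.0953, 0.471 and 0.12). Hemicentin-1 (Hmcn1), a large matrix protein of tissue junctions, measured 487, 587 and 621 CPM in TP1 controls and 352, 297 and 291 CPM in TP1 treated tumors, without overlap, and its log2FC stayed under the limit at TP1, TP2 and TP3 (-0.87 ± 0.19, -0.56 ± 0.17 and -0.92 ± 0.17; adjusted p = 0.00276, 0.0131 and 0.000473).

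Markers of several cell types also changed in 60577. Their counts stand beside 15.6%, 24.4% and 24.4% of all genes called at TP1, TP2 and TP3, and 7.87% from TP2 to TP3 treated tumors. All 6 adipocyte markers were called higher at TP1, TP2 and TP3, and their sum was 3.78 to 10.1 CPM in TP1 controls, 12.2 to 739 in TP1 treated tumors, 2.67 to 19.7 in TP2 controls, 100.0 to 1124 in TP2 treated and 1825 to 2586 in TP3 treated tumors. All 5 tested epithelial markers were called lower at each time point, with sums of 1302 to 1605, 269.5 to 520.4, 1558 to 2552, 209.8 to 446 and 167 to 264 CPM in the same order. Of 5 mesothelial markers, which the malignant lines also express, 4, 1 and 4 were called lower, with sums of 2163 to 2314, 686 to 1079, 1912 to 2484, 851 to 1304 and 593 to 984 CPM. Of 7 fibroblast markers 6, 2 and 3 were called higher, of 6 pericyte markers 3, 2 and 4, of 7 endothelial markers 0, 0 and 3, of 5 smooth muscle markers 2, 2 and 3, and of 4 macrophage markers 1, 1 and 1. The fibroblast sums were 5634 to 9745, 17306 to 27259, 5812 to 9242, 7542 to 11580.2 and 8747 to 9548 CPM, and the endothelial sums 182 to 268, 218 to 377, 48.2 to 373, 198 to 392 and 393 to 573 CPM. Of the 7 pancreatic acinar markers, none was called at TP1 or TP3, all 7 were called lower at TP2 (median log2FC -7.02), and 6 were called higher from TP2 to TP3 treated tumors (median 5.12). Their sums were 4.87 to 10.4, 9.42 to 22.8, 10.2 to 1435, 5.85 to 20.3 and 60.0 to 407 CPM in the same order, beside which the calls of Col15a1, Nid1 and Smoc1 from TP2 to TP3 ended with the acinar covariate, as given above. No defining marker of these lists was at 0 in all libraries of a treated group, and the part of these cell types in the changes of the basement membrane genes was not tested.

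The genes called at TP3 were also read in the 60577 line grown alone. Of the 8 genes called higher at TP3, 6 (Lama2, Lama3, Lama4, Col15a1, Nid1 and Smoc2) were lower in both 60577 line libraries than in all 6 control tumors, and Nid2 and Smoc1 overlapped. The same held for 64.5% of all 2307 genes called higher at TP3, for 36.8% of all genes tested and for 13 of the 31 members. Of the 7 genes called lower at TP3, Lama5 was higher in both line libraries, Col4a5, Agrn and Npnt overlapped the controls, and Lamc3, Fras1 and Frem2 were lower in the line. Of all 1659 genes called lower at TP3, 40.5% were higher in both line libraries than in all 6 control tumors and 514 genes were lower. Lamc3, for example, measured 17.7 and 11.5 CPM in the line and 345 to 568 CPM in control tumors, and Fras1 85.3 and 75.4 CPM in the line and 86.9 to 313 CPM in control tumors. Tumors and lines were sequenced as separate batches, so these are ranges and no test was made.

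In HGS2 tumors no basement membrane gene was called after chemotherapy. edgeR called 0% of all genes at TP1, at TP2 and at TP3, and 1, 2 and 1 members and 413, 1233 and 406 genes had an unadjusted p under 0.05. limma-voom called no gene and DESeq2 no member and 1, 8 and 5 genes in these comparisons. The standard errors were wider than in 60577, with a median over the members of 0.604 at TP1 and 0.569 at TP2 against 0.315 and 0.291, so the HGS2 comparisons could resolve only larger changes. At TP2, Fras1 had the largest difference. It measured 129, 187, 199 and 84.8 CPM in controls and 14.1, 13.9 and 28.9 CPM in treated tumors, without overlap (log2FC = -2.98 ± 0.98, adjusted p = 0.588). Nid2 measured 217, 348, 68.9 and 107 CPM in TP2 controls and 67.4, 84.7 and 38.6 CPM in TP2 treated tumors, which overlapped (log2FC = -1.56 ± 0.59, adjusted p = 0.608). Lama5 measured 174, 447, 291 and 395 CPM in these controls and 264, 71.9 and 111 CPM in these treated tumors (log2FC = -1.14 ± 0.63, adjusted p = 0.674), also with overlap. The 4 TP3 tumors, of which the first was not in the fit, had 114, 73.2, 213 and 309 CPM of Lama5, which overlapped the TP2 controls. Their Nid1 levels of 222, 289, 234 and 304 CPM all lay below the TP2 controls (334, 404, 357 and 377 CPM), but the test did not pass (log2FC = -0.41 ± 0.27, adjusted p = 1).

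Whether HGS2 and 60577 tumors responded differently was tested with an interaction term. At TP1 no member differed (edgeR, 1.45% of all genes called, 5 members with an unadjusted p under 0.05), and DESeq2 called Nid1, Lama4 and Smoc2, which had log2FC differences in edgeR of -1.64 ± 0.54, -1.12 ± 0.37 and -2.95 ± 0.86 (adjusted p = 0.0971, 0.0983 and 0.0681). At TP2 Lama2 and Nid2 differed, beside 6.90% of all genes (3.68% higher and 3.21% lower), and both responses were lower in HGS2. Lama2 measured 39.4, 115, 13.7 and 8.76 CPM in HGS2 TP2 controls and 11.8, 14.7 and 13.2 CPM in treated tumors, where 60577 had risen, and the difference in log2FC was -3.86 ± 1.06 (adjusted p = 0.0255). For Nid2 it was -2.82 ± 0.76 (adjusted p = 0.0228). With the replicate number as a block only Nid2 kept its call and Lama2 had -3.69, adjusted p = 0.054. Neither was called without HGS2 TP2 control replicate 2, which is rich in acinar transcripts (-2.78 and -2.33, adjusted p = 0.0662 and 0.0505), without 60577 TP2 control replicate 2 (-3.55 and -2.51, adjusted p = 0.0861 and 0.0811) or without HGS2 TP2 treated replicate 3 (-3.86 and -2.56, adjusted p = 0.0537 and 0.0597). Lama2 also lost its call without HGS2 TP2 treated replicate 1 (adjusted p = 0.0616) or 60577 TP2 treated replicate 4 (adjusted p = 0.0506).

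Control tumors of the models differed in most of the genes. Of the 30 tested, 10 were higher and 9 lower in HGS2 than in 60577 control tumors, beside 22.0% of all genes called (13.2% higher and 8.81% lower), and model, mouse strain and the day of growth cannot be told apart in this comparison. Both nidogens were higher in HGS2. Nid1 measured 263 to 689 CPM in the 7 HGS2 and 52.5 to 144 CPM in the 6 60577 control tumors (log2FC = 2.31 ± 0.27, adjusted p = 1.81e-07), with no overlap, and Nid2 59.9 to 348 and 12.9 to 38.6 CPM (log2FC = 2.87 ± 0.41, adjusted p = 2.82e-06), also with none. Sparc (2.06 ± 0.25), Smoc1 (2.95 ± 0.68), Smoc2 (2.41 ± 0.44), Col15a1 (1.32 ± 0.31), Pxdn (1.25 ± 0.21), Lama2 (2.48 ± 0.56), Lama4 (1.40 ± 0.18) and Lamb1 (1.01 ± 0.22) were the other higher genes.

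Lower in HGS2 were Hmcn1, Lama5, Agrn and 6 more. Hmcn1 measured 36.1 to 86.2 CPM in HGS2 and 388 to 621 CPM in 60577 controls (log2FC = -3.28 ± 0.34, adjusted p = 2.09e-08), and Lama5 55.4 to 447 and 602 to 891 CPM (log2FC = -1.81 ± 0.34, adjusted p = 9.30e-05), both without overlap. The others were Agrn (-1.21 ± 0.23), Lama1 (-2.17 ± 0.55), Lamc3 (-1.48 ± 0.51), Col4a3 (-1.67 ± 0.65), Col4a4 (-2.67 ± 0.64), Fras1 (-1.64 ± 0.51) and Frem2 (-3.16 ± 0.87). In HGS2 controls Col4a3, Col4a4 and Frem2 were near the floor, at 0.0331 to 1.28, 0.0392 to 2.41 and 0 to 6.50 CPM. Each was highest in TP1 control replicate 3 and TP2 control replicate 2, the acinar-rich controls. Without the 3 acinar-rich HGS2 tumors no call between control tumors of the models was lost. Col4a1, Col4a2, Col4a6, Lamc1 and Lamb2 had log2FC of 0.49, 0.50, 0.25, 0.14 and -0.22 and were not called. Among the higher genes Lamb1 was at the fold limit and lost its call without HGS2 TP1 control replicate 1 (0.71) and under 6 other omissions, Pxdn lost it without the same tumor (0.96), and the call of Col4a3 ended under 6 omissions, with adjusted p up to 0.122 without 60577 TP2 control replicate 3. The fibroblast markers summed to 30619.7 to 132453 CPM in HGS2 TP1 controls and 26693 to 70293 CPM in TP2 controls, far above 60577, with 5 of 7 called higher. In the lines grown alone they summed to 1043 to 2311 CPM (60577) and 16038 to 34127 CPM (HGS2), and 5 of 7 were called higher in the HGS2 line as well. Between the control tumors all 7 acinar, all 4 macrophage, 3 of 6 adipocyte, 3 of 5 smooth muscle, 2 of 6 pericyte and 1 of 7 endothelial markers were also called higher in HGS2, and 4 of 5 tested epithelial markers and 1 of 5 mesothelial markers were called lower. The part of these cell types was not tested.

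The cell lines differed in part of the same genes without any host tissue. Of the 28 genes tested in the lines, 10 were higher and 1 lower in HGS2, beside 15.9% of all genes (7.55% higher and 8.38% lower). Nid2 measured 1813 and 397 CPM in the HGS2 and 32.3 and 57.4 CPM in the 60577 libraries (log2FC = 4.63 ± 0.85, adjusted p = 0.0221), Col15a1 50.5 and 19.2 CPM against 4.70 and 2.33 CPM (log2FC = 3.33 ± 0.61, adjusted p = 0.0223), and Sparc 5069 and 3311 CPM against 1614 and 1330.0 CPM (log2FC = 1.52 ± 0.35, adjusted p = 0.0394). The ranges did not overlap for any of these. Col4a1 (1.85 ± 0.46), Col4a5 (1.51 ± 0.34), Col4a6 (1.56 ± 0.34), Nid1 (2.19 ± 0.45), Npnt (1.48 ± 0.18), Smoc1 (5.01 ± 1.01) and Pxdn (2.07 ± 0.24) were also higher, and Col4a3 was lower (-3.51 ± 0.85). Smoc1 had 0 and 7 counts in the 60577 and 76 and 112 counts in the HGS2 libraries, so the size of its change rested on few counts. Of the 10 genes higher in HGS2 tumors, 6 were also higher in the HGS2 line (Col15a1, Nid1, Nid2, Smoc1, Sparc and Pxdn), which is 60.0% of either list. Of all genes, 24.2% of those called higher in HGS2 control tumors were also called higher in the line, and 50.1% of those called higher in the line were also called higher in the tumors. Of the 9 genes lower in HGS2 tumors, Col4a3 was the only one called lower in the line, and Hmcn1 did not differ there by the test (log2FC = 0.12 ± 0.39, adjusted p = 0.853).

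Nothing in the labels says that the libraries of a line came from separate cultures, so these p-values measure the spread between the libraries only. The number of calls ranged from 1 (without 60577 line replicate 2) to 16 (without HGS2 line replicate 1) when a single library was left out, and the lone library is then assumed to vary like the other pair.

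The order of the levels per kilobase put the same few genes on top in both models. In 60577 control tumors Sparc led with 383 ± 69.9 CPM per kb (mean ± SD, n = 6), followed by Hspg2 with 195 ± 26.4. Lamc3 (77.3 ± 15.1), Col4a1 (76.6 ± 24.1), Lamc1 (74.1 ± 5.95), Lama5 (69.5 ± 12.0), Agrn (66.2 ± 12.7) and Col4a2 (61.0 ± 16.8) came next, and neighbors in this stretch lay within their SD. In HGS2 control tumors Sparc (1591 ± 457, n = 7) and Hspg2 (153 ± 26.1) were again first, followed by Col4a1 (108 ± 25.2), Col4a2 (86.5 ± 20.4), Lamc1 (80.9 ± 12.4) and Nid1 (59.5 ± 19.7), while Lama5 was at 22.2 ± 13.1.

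Some genes were higher in tumors than in the malignant cells grown alone. Lama2, Lama3, Lama4, Lamc3, Col15a1, Col18a1, Nid1 and Smoc2 were above the line in all control tumors of both models. Lama4, for instance, measured 10.2 and 5.12 CPM in the HGS2 line and 107 to 361 CPM in HGS2 control tumors. Lama5, Lamc1 and Col4a4 were above all control tumors in the lines of both models. In HGS2 the line also exceeded all control tumors in Col4a1, Col4a2, Col4a5, Col4a6, Nid2, Npnt and Hmcn1. Of all genes tested, 36.8% were above the 60577 line in all 60577 control tumors and 32.2% were below it in all of them. For HGS2 and for both models together such shares were not counted, so these lists are no result particular to the members. Adipocyte markers in the lines summed to 0.360 to 0.595 CPM (60577) and 0.177 to 0.536 CPM (HGS2), and the 7 endothelial markers to 27.6 to 29.0 and 44.3 to 59.1 CPM, of which Kdr made up 26.0 to 26.5 and 42.4 to 55.4 CPM and Cdh5 was at 0 in all 4 line libraries.

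**Figure D5:**
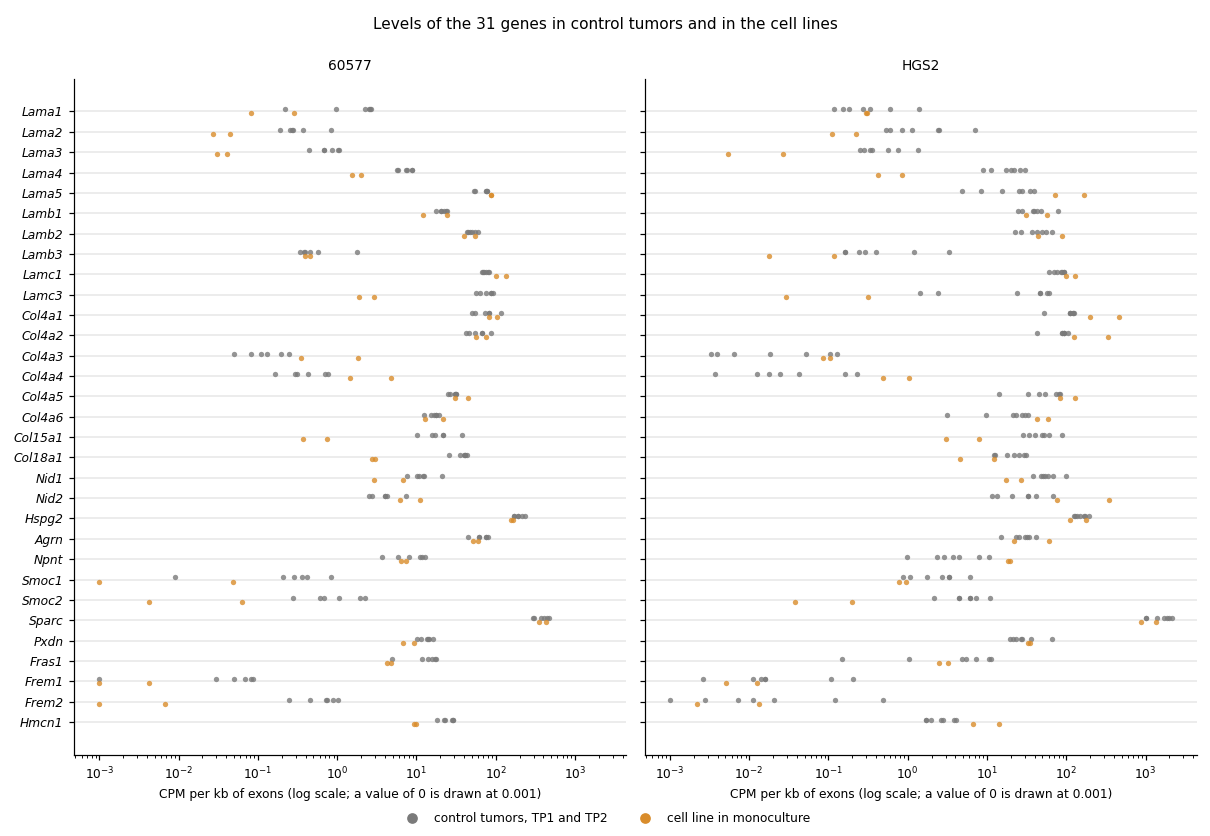
CPM per kilobase of exon on a log axis (x) of all 31 genes (y) in the control tumors (gray) and the cell line libraries (orange) of 60577 (left) and HGS2 (right), with 1 point per library. The orange points lie to the left of all gray points for Lama2, Lama3, Lama4, Lamc3, Col15a1, Col18a1, Nid1 and Smoc2 in both models, and to the right for Lama5, Lamc1 and Col4a4.

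Genes that work on the basement membrane but are no components of it were counted as well. Of 15 receptors, 2 were called higher and 3 lower at TP1 in 60577, 1 and 5 at TP2, and 2 and 5 at TP3. These counts and those of the next lists stand beside 15.6%, 24.4% and 24.4% of all genes called at the successive time points. The collagen receptor Ddr2 was higher at all 3 time points (2.56 ± 0.35, 2.47 ± 0.34 and 3.55 ± 0.36), and the laminin-binding integrin subunit Itga3 was lower at all 3 (-1.49 ± 0.19, -1.24 ± 0.17 and -1.90 ± 0.17). Of 12 other associated proteins, 4 were higher and 1 lower at TP1, 2 and 5 at TP2, and 2 and 1 at TP3, with fibulin-1 (Fbln1) higher at each (1.73 ± 0.31, 1.53 ± 0.29 and 2.49 ± 0.31). Of 17 enzymes and inhibitors of turnover and assembly, 6 were higher and none lower at TP1, among them the gelatinases Mmp9 (4.70 ± 0.83) and Mmp2 (1.75 ± 0.32), whereas at TP2 1 was higher and 4 were lower, among them Timp1 (-2.23 ± 0.51) and the collagen prolyl hydroxylase subunit P4ha2 (-2.08 ± 0.33). At TP3, 2 were higher and 4 lower. None of these 44 genes was called in HGS2 after treatment, where edgeR called 0% of all genes at each time point.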

How the data were processed

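The members and the other gene lists were chosen with earlier results of these data known. Expected counts per gene had been made by the authors before deposit: reads of ribosome-depleted, strand-specific paired-end libraries were trimmed with Trim Galore 0.6.5, aligned to GRCm38 (mm10) with STAR 2.7.0f and counted with RSEM, per the submitters' processing notes and the study's methods. The strand setting of the counting is not given in the sources used here. Deposited values of 34 tumors and 4 cell line libraries were rounded to whole numbers. Expected counts divide reads between similar genes by estimation, and totals differed between libraries, so low genes carry more counting error.

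Genes with at least 1 CPM in 25% of the 33 tumors fitted were tested (16241 genes; 13742 in the cell lines). edgeR 4.0.16 in R 4.3.3 was used for quasi-likelihood tests (TMM scaling, two-sided, Benjamini-Hochberg over all genes tested). The 5 groups of a model were fitted together, all 10 groups for comparisons between models, and the cell lines apart. All adjusted p-values in the results are from edgeR unless another tool is named, and SE was |log2FC| divided by the square root of F. Levels per kilobase used merged exons of GENCODE M21. The fits were tested on simulated data. Of 44 replicate pairs none agreed within sampling noise (chi-square per degree of freedom 9.384 to 712.8).

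All 31 members were described, and genes of other lists by counts, with at most 4 examples of the largest called changes. Alternatives were DESeq2 1.42.0 size factors and Wald test, limma 3.58.1 voom, no filter, a length and GC offset, an acinar marker covariate, a joint fit, all 34 tumors, replicate blocks and leaving out each library. Leaving out the 3 acinar-rich tumors was chosen after seeing the data. Replicate numbers are shared by groups in the labels. Same-numbered samples deviated together (every correlation over 0.1) only between treated and control tumors at TP2. The correlations there were 0.115 to 0.141 in 60577 and 0.147 to 0.298 in HGS2. The labels do not say that equal numbers pair the tumors, and correlations of this size do not establish it. The main tests used no pairing, and the replicate block was an alternative. Python 3.11.15, pandas 2.3.3 and matplotlib 3.10.9 made the tables and figures.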

Additional observations from a re-analysis of the deposited data

Results flagged for a closer look

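In the 4 groups of 4 tumors, a single tumor stood far from the others in 4 of 120 checks of a member in a group, and chance gives about 1 in 20. Lamb1 was at 397 CPM in HGS2 TP3 treated replicate 4, the highest of its group. Col4a6 was at 52.1 CPM in HGS2 TP3 treated replicate 1, the lowest. Col15a1 was at 263 CPM in 60577 TP2 treated replicate 1, the highest, and Fras1 at 85.7 CPM in the same tumor, the lowest.

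The response at TP2 differed between the models for Lama2 (difference in log2FC -3.86, edgeR adjusted p = 0.0255) and Nid2 (-2.82, edgeR adjusted p = 0.0228), both lower in HGS2, by the interaction term. These 2 of 30 tested members stand beside 6.90% of all genes called, so their number is no result particular to the members. Both calls ended without HGS2 TP2 control replicate 2 (edgeR adjusted p = 0.0662 and 0.0505) and under other omissions given above.

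In HGS2 TP3 treated replicate 1, which was not in the tests, some genes were above all 7 HGS2 control tumors. Lama3 was at 15.3 CPM against at most 14.7 CPM in controls, Smoc1 at 27.8 against 21.1, Smoc2 at 91.3 against 76.7, and Sparc at 9903 against at most 8089.7 CPM. This tumor library had the fewest counts (17839641). The share of all genes above the controls in it was not counted, so these values are no result about the members.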

How the results depend on the processing

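Of 71 calls of a member in a comparison, 69 were kept with DESeq2 size factors, 68 without the filter, 70 with the DESeq2 test, 67 with limma-voom, 62 with the replicate block, 69 with the length and GC offset and 64 with both together. All 60 tumor calls were kept with all 34 tumors, 55 of 60 with the acinar covariate, and 22 of 39 in the joint fit. The joint fit called 3 members in 60577 at TP1, 1 from TP1 to TP2 treated tumors and 3 from TP2 to TP3. At 60577 TP2, 12 were called with the offset (5 higher, 7 lower) and 11 with the offset and block. The offset gave 4 higher and 5 lower from TP1 to TP2 treated tumors, 6 and 1 from TP2 to TP3, 1 and 2 in the response at TP2, and 11 and 3 in the cell lines. The replicate block left 4 calls from TP1 to TP2 treated tumors and 1 in the response at TP2, where limma-voom also left 1. In the comparisons of treated with control tumors at TP2 the block ended the call of Smoc1 in 60577 and changed no other call. From TP2 to TP3, DESeq2 and limma-voom each called 8. In the response at TP1, DESeq2 called 3, and 1 was called without the 3 acinar-rich HGS2 tumors. In the cell lines 19 were called without the filter and 19 by DESeq2. Lamb3 turned from 0.23 to -1.49 (adjusted p = 0.00655) between control tumors of the models without the acinar-rich tumors. The causes were not tested.

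With 1 library left out, calls ranged from 5 to 8 at 60577 TP1, 5 to 9 at TP2 and 11 to 16 at TP3. They ranged from 0 (without TP1 treated replicate 1) to 11 (without TP1 treated replicate 2) from TP1 to TP2 treated tumors, and from 2 (without TP2 treated replicate 3) to 8 (without TP2 treated replicate 1) from TP2 to TP3. They ranged from 0 to 1 between HGS2 controls (1 without TP1 control replicate 2), 0 to 3 in the response at TP1 (3 without HGS2 TP1 control replicate 2) and at TP2 (3 without 60577 TP1 treated replicate 2), 17 to 19 between control tumors of the models, and 1 to 16 in the cell lines. The other HGS2 comparisons stayed at 0. A depth of 17839641 counts or more per tumor left Frem1 untested, and Col4a3 rested on few counts.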
